A study of Caenorhabditis elegans with 2 samples.

Results

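The proteasome subunit genes of the nematode Caenorhabditis elegans are described here by where chromatin bound by the zinc finger transcription factor LSY-2 lay in their promoters. The members were all protein-coding genes of the Ensembl release 115 annotation whose names begin with pas-, pbs-, rpt- or rpn-, which gave 33 of 19973 protein-coding genes. Of these, 14 encode the core particle and 19 the regulatory particle. LSY-2 binding was measured by ChIP-seq, in which DNA crosslinked to a protein is recovered with an antibody and sequenced. The labels give 1 group of 2 biological replicates. Both replicates are whole L1 larvae, the earliest larval stage, with males and females pooled, of strain OP367. That strain carries the unc-119(tm4063) allele on chromosome III and the transgene wgIs367, from which eGFP-tagged LSY-2 is made. No source used here states the promoter of the transgene, and the samples include no untagged or mutant group. Peaks therefore describe where the tagged protein was found over all cells of the larva together, with no comparison between conditions.

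The proteasome degrades proteins that carry ubiquitin chains, and every cell needs it. Its core particle is a barrel of rings, with alpha subunits (pas genes) forming the outer rings that gate the entrance and beta subunits (pbs genes) forming the inner rings that hold the protease sites. Its regulatory particle caps the barrel and has a base, with a ring of ATPases (rpt genes) that unfold substrates and the scaffolds RPN-1 and RPN-2, and a lid that removes the ubiquitin chains. RPN-10 and RPN-13 are known as receptors for ubiquitin. In this species the factor SKN-1 is known to raise the expression of proteasome genes when proteasome function falls.

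Most proteasome genes had an LSY-2 peak in the promoter. A promoter peak was counted when the summit of a peak past the authors' IDR threshold (a test of how reproducible peaks are between replicates) fell in the window that runs from 1000 bp before to 200 bp after an annotated transcript start of the gene. By this rule 27 of the 33 members had a promoter peak (81.8%), where 16.9% of all protein-coding genes had one. In the core particle 11 of 14 members had one (78.6%), and in the regulatory particle 16 of 19 (84.2%). The alpha ring had peaks at 5 of 7 genes and the beta ring at 6 of 7. The ATPase ring had them at 6 of 6, the scaffolds at 2 of 2, the ubiquitin receptors at 1 of 2 and the lid at 7 of 9. No test was run on these counts, since the members are a complete list in a single group, so the counts of the core and regulatory particles are not shown to differ.

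**Figure D1:**
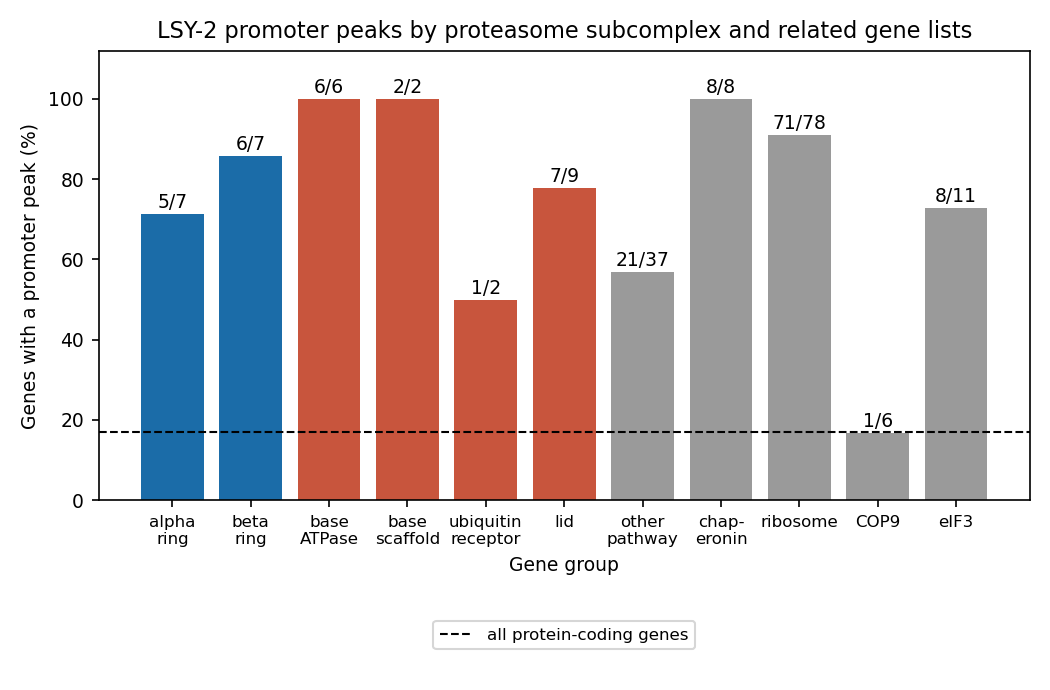
Bars show the percentage of genes with a promoter peak (vertical axis) in each proteasome subcomplex (blue for the core particle, red for the regulatory particle) and in related gene lists (grey), with counts above the bars, and the dashed line marks the 16.9% of all protein-coding genes. Each proteasome subcomplex lies above the line, and of the related lists the COP9 signalosome, at 1 of 6, lies beside it.

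Height varied widely among the members. The height of a peak is the authors' signal value, and no source used here states which statistic it is. It serves only to rank and describe peaks within a list, and it has no unit. The strongest promoter peaks of the 27 members ran from 53.3 to 1898 in the pooled list, with a median of 166, against a median of 120.5 over the 3385 protein-coding genes that had one. The signal of 18 of the 27 was above that median of all genes. The median was 165 in the core particle and 188 in the regulatory particle, and the ranges overlapped almost throughout (55.0 to 1898 and 53.3 to 1566). Of the 4218 peaks past the threshold, the 100 strongest included those of pas-4 and rpn-5.

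**Figure D2:**
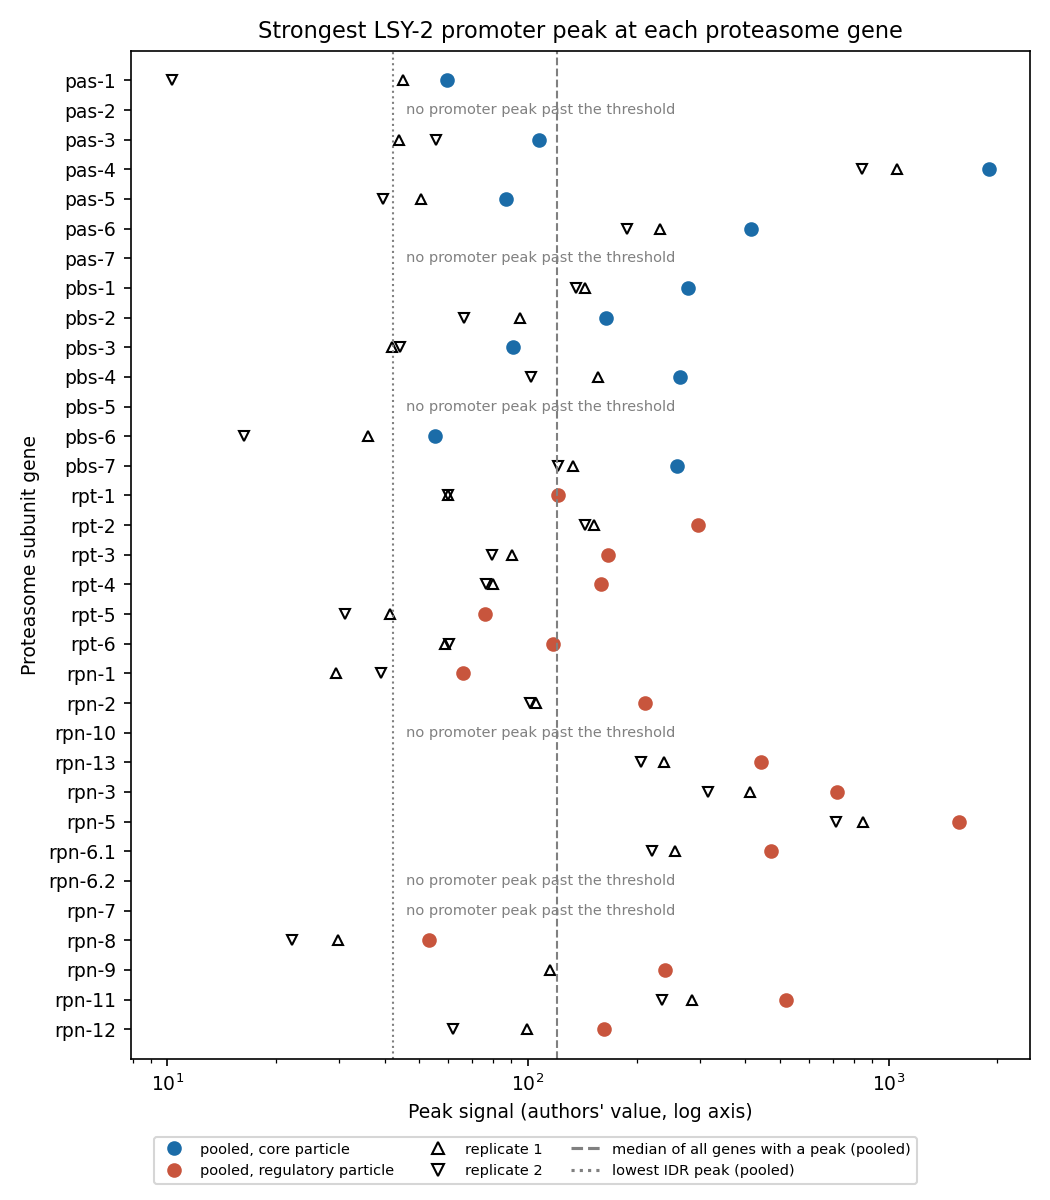
Each row is a proteasome gene and the horizontal log axis is the signal of its strongest promoter peak, with filled circles for the pooled list and triangles for each replicate. The dashed line marks the median over every protein-coding gene with such a peak (120.5) and the dotted line the lowest peak past the IDR threshold (42.2), both for pooled signals. The peaks of pas-4 and rpn-5 stand to the right of all others.

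Among the alpha subunits, pas-4 had the strongest peak of any proteasome gene. The pas-4 peak spans chrI:8728439-8728824 with a pooled signal of 1898, and with 1057.7 in replicate 1 and 845 in replicate 2, at rank 38 of the 4218 peaks. Its summit lies 139 bp upstream of the pas-4 start and 138 bp upstream of the start of rpb-3, a subunit gene of RNA polymerase II transcribed the other way, and falls in an exon of the non-coding RNA gene C36B1.16. The replicates placed this summit at the same base. The peak of pas-6 had signals of 232 in replicate 1 and 188 in replicate 2 (pooled 416). It lies 250 bp upstream of pas-6 and 540 bp upstream of CD4.11. The other alpha subunit peaks were lower than the median of all genes. The pas-3 peak had signals of 43.8 in replicate 1 and 55.4 in replicate 2 (pooled 107). It stands 1 bp inside the transcript of use-1, 157 bp upstream of pas-3. At pas-5 there were 2 promoter peaks. The nearer, 320 bp upstream, had signals of 50.4 in replicate 1 and 39.7 in replicate 2 (pooled 86.8), and the farther, 924 bp upstream, lies in the small nucleolar RNA gene F25H2.15 with 44.1 and 16.4 (pooled 66.2). The pas-1 peak was the weakest in this ring. It had signals of 45.0 in replicate 1 and 10.3 in replicate 2 (pooled 59.6). The replicate 2 summit lies 105 bp from the pooled summit. The pooled summit, 874 bp upstream of pas-1, lies 188 bp upstream of the nearer start of rpoa-12.

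Peaks of the beta subunits ran from 55.0 to 278 in pooled signal, with a median of 212. The highest was that of pbs-1, whose human relative carries the caspase-like site, with 144 in replicate 1 and 136 in replicate 2 (pooled 278) at chrIV:1709816-1710069. It lies 199 bp upstream of pbs-1 and 321 bp upstream of K08D12.3. The peak of pbs-4 had 156 in replicate 1 and 102 in replicate 2 (pooled 263), 160 bp upstream, with no other protein-coding start in reach. That of pbs-7 had 133 and 120.97 (pooled 259), 145 bp upstream of pbs-7 and 157 bp upstream of F39H11.1. These peaks were alike in height, and replicate 1 was the higher in each, as at most members. At pbs-2, whose human relative carries the trypsin-like site, the signals were 95.2 in replicate 1 and 66.3 in replicate 2 (pooled 165). That summit lies 338 bp upstream of pbs-2 and 328 bp upstream of eif-6, a gene for a translation factor. The peak of pbs-3 had 41.9 and 44.3 (pooled 90.9) and lies in an exon of its upstream neighbour ulp-2, 136 bp before the start of pbs-3. The pbs-6 peak was the lowest of the ring, with 36.1 in replicate 1 and 16.3 in replicate 2 (pooled 55.0). It lies 164 bp upstream of pbs-6 and 189 bp upstream of cids-1. The gene for the chymotrypsin-like subunit, pbs-5, had no peak past the threshold.

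All members of the ATPase ring had a promoter peak, and none of these stood among the highest. The strongest was at rpt-2 (chrV:6017684-6017924), with 152 in replicate 1 and 144 in replicate 2 (pooled 296), 133 bp upstream of rpt-2 and 168 bp upstream of aps-1, a clathrin adaptor subunit gene. The rpt-3 peak had 90.1 and 79.2 (pooled 166) and lies 685 bp upstream, in an exon of the neighbouring gene chtb-2. The rpt-4 peak had 79.8 and 76.5 (pooled 160) and lies in an intron of rpt-4, 172 bp upstream of the nearer of its 2 annotated starts and 73 bp upstream of nfyc-1. In these genes the replicates differed little. At rpt-1 the signals were 60.1 and 59.9 (pooled 120.9), 129 bp upstream. At rpt-6 there were 2 promoter peaks, the stronger of 58.8 and 60.4 (pooled 118) 251 bp upstream. The weaker, of 40.1 and 52.7 (pooled 85.1), lies 750 bp upstream and 656 bp upstream of the histone H3.3 gene his-72. The lowest of the ring was rpt-5, with 41.5 and 31.0 (pooled 76.1), 514 bp upstream of rpt-5 and 95 bp upstream of rad-8. The scaffold gene rpn-2 had 105 and 101 (pooled 211), 356 bp upstream of rpn-2 and 414 bp upstream of C23G10.7. The scaffold gene rpn-1 had 29.4 and 39.1 (pooled 65.9), 363 bp upstream of rpn-1 and 407 bp upstream of ribo-1. The receptor gene rpn-13 had 238 in replicate 1 and 206 in replicate 2 (pooled 443), 315 bp upstream, with no other protein-coding start in reach.

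The lid genes held several of the highest peaks. Their median was 472 over 7 genes, against 140 over the 6 ATPase genes, with ranges of 53.3 to 1566 and 76.1 to 296. The rpn-5 peak (chrII:4698289-4698639), at a structural lid subunit gene, had 851 in replicate 1 and 715 in replicate 2 (pooled 1566, rank 48). It lies 32 bp upstream of rpn-5 and 262 bp upstream of the cohesin gene scc-1. The rpn-3 peak had 412 and 315 (pooled 722, rank 132) and lies 191 bp upstream of rpn-3 and 253 bp upstream of hsp-110, a chaperone gene. The peak of rpn-11, the gene for the deubiquitinating enzyme of the lid, had 285 and 234.9 (pooled 519, rank 216) only 27 bp upstream of its start. The rpn-6.1 peak had 256 and 221 (pooled 472, rank 241) and lies in an intron. It stands 428 bp upstream of the nearer of 2 annotated starts and 722 bp upstream of F57B9.1. In C. elegans rpn-6.1 is known for its link between proteasome activity and long life. In all 4 of these genes replicate 1 was the higher, as at most members. The rpn-12 peak had 99.4 and 61.9 (pooled 163) and lies 161 bp upstream of rpn-12 and 234 bp upstream of rad-23, a gene for a shuttle that brings ubiquitin-tagged proteins to the proteasome. The rpn-8 peak had 29.7 and 22.2 (pooled 53.3), the lowest of any member, 249 bp upstream of rpn-8 and 296 bp upstream of mrps-6. At rpn-9 the signal was 115 in replicate 1 and 240 in the pool, while replicate 2 listed no summit within 200 bp. Its nearest was 4188 bp away. The pooled summit lies 262 bp upstream of rpn-9 and 416 bp upstream of T06D8.9. The pbs-7 peak, of near pooled height (259), had 133 in replicate 1 and 120.97 in replicate 2. Why replicate 2 listed no summit at rpn-9 was not tested.

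The bases around the summits of rpn-5, rpn-3 and rpn-11 are shown because they carry the 3 highest lid peaks. Each line gives the summit base and 60 bases on each side of it from the RefSeq sequence of WBcel235 (ce11), 5′ to 3′ in the direction of the proteasome gene. Capitals mark 6-mers, on either strand, that start within 50 bp of the summit. Those searched were GAGAGA together with GACGCA along with ACCGTA, then TGTCAT with its other spelling TATCAT for a known SKN-1 site, and the core promoter box TATAAA. The stretches are chrII:4698399-4698519 on the minus strand for rpn-5, chrIII:8447102-8447222 on the plus strand for rpn-3 and chrII:4044513-4044633 on the minus strand for rpn-11.
rpn-5: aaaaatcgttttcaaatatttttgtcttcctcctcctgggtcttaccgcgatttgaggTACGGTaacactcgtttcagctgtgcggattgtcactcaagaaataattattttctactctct
rpn-3: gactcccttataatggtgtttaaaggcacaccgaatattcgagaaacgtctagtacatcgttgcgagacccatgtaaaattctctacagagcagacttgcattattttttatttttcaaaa
rpn-11: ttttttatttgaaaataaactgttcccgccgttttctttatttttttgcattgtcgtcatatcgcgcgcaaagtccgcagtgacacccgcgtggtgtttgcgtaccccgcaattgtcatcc
Of these, rpn-5 holds ACCGTA, read here as its reverse complement, and the match covers the summit base.

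The 6-mer ACCGTA stood near more of the stronger proteasome peaks. It came, with GAGAGA and GACGCA, from an earlier account of all LSY-2 peaks, so its presence at strong peaks in general is not a result about the proteasome. It started within 50 bp of the summit at 6 of 27 member peaks (22.2%), against 9.97% of all 2658 promoter peaks. The 6 were those of pas-4, pas-6, pbs-4, rpn-5, rpn-6.1 and rpn-13. All 6 lie among the 17 member peaks in the strongest 1 in 3 of promoter peaks (signal above 159), where they make up 35.3%, against 22.2% of all peaks of that height. It covered the summit base at rpn-5. Its nearest base was 6 to 13 bp from the summit at pas-4, pas-6, pbs-4 and rpn-6.1 and 37 bp away at rpn-13. The holders with sequence shown, besides rpn-5, are on the minus strand at chrIII:6961308-6961428 (rpn-6.1), chrIII:6342183-6342303 (rpn-13) and chrV:5584533-5584653 (pas-6), given over the same length in the direction of the gene.
rpn-6.1: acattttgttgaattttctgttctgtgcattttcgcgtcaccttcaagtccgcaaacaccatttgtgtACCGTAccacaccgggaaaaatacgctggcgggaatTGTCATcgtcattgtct
rpn-13: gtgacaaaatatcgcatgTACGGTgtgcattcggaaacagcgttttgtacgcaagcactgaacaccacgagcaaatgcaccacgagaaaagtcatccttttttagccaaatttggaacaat
pas-6: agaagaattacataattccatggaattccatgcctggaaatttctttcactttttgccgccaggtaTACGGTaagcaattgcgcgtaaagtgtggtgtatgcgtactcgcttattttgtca
The match is on the strand of the gene at rpn-6.1 and on the other strand at rpn-13 and pas-6.

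GAGAGA was rare at proteasome peaks. It started within 50 bp of the summit at 2 of 27 members (7.41%), pas-5 and pbs-6, against 24.9% of all promoter peaks. In the strongest 1 in 3 of promoter peaks it was near 0 of 17 member peaks, against 19.0% of all peaks of that height. Among the weaker peaks it was near 2 of 10 (20.0%), against 27.9%. GACGCA was near 4 of 27 (14.8%), pas-5, rpn-9, rpn-2 and rpt-6, against 19.1%. TATAAA, the core promoter box, was near 0 of 27 members and 5.68% of promoter peaks. GC content within 50 bp of the summit was alike, with a median of 44.6% at member peaks and 45.5% at all promoter peaks. The windows of pbs-6 (chrIII:8244196-8244316, minus strand), rpn-9 (chrII:11239121-11239241, minus strand) and rpt-6 (chrIII:12370145-12370265, plus strand) show a GAGAGA and 2 GACGCA matches.
pbs-6: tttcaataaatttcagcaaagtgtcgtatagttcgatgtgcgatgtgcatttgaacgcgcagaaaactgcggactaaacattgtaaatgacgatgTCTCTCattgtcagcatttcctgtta
rpn-9: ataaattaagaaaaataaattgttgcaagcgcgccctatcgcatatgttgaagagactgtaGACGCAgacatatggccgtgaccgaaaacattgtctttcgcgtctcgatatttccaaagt
rpt-6: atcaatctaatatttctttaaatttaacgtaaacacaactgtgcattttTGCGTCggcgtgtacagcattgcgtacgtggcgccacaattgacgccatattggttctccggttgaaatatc
At rpn-9 the GACGCA match comes within 1 bp of the summit.

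TGTCAT, which spells 6 bases of the site known to be bound by SKN-1, was near 5 of 27 member peaks (18.5%), against 4.85% of all promoter peaks. The 5 were rpt-2, rpt-4, rpn-2, rpn-6.1 and rpn-12, all of the regulatory particle. Within 25 bp it was near 1 of 27 (rpt-2, 3.70%), against 2.26%, and within 100 bp near 8 of 27 (29.6%), against 9.14%, with pbs-1 and pas-6 of the core particle among the holders. The other spelling of that core, TATCAT, was near 1 of 27, rpn-8, against 2.75%. A longer match was noticed after these sequences were read. At each of the 5 genes the bases before TGTCAT extend it to ATTGTCAT, and this 8-mer started within 50 bp of only 18 of all 2658 promoter peak summits (0.677%). Within 100 bp it was at 7 of 27 members (25.9%), adding rpn-11 and pbs-1, against 32 of 2658 promoter peaks (1.20%). Of these 7 peaks, that of pbs-1 belongs to the core particle. The 8-mer was picked for its presence at these members, so no test was made of it and the counts are a description.

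The 7 matches are shown in line to let their flanks be compared, each as 32 bases of WBcel235 read 5′ to 3′ on the strand that spells ATTGTCAT, with the 8-mer in capitals. They lie at chrII:43773-43804 (rpt-4, plus), chrII:4044503-4044534 (rpn-11, minus), chrII:11652976-11653007 (rpn-12, plus), chrIII:6198864-6198895 (rpn-2, minus), chrIII:6961307-6961338 (rpn-6.1, minus), chrIV:1709871-1709902 (pbs-1, plus), chrV:6017773-6017804 (rpt-2, minus).
rpt-4: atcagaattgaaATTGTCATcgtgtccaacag
rpn-11: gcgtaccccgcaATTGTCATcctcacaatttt
rpn-12: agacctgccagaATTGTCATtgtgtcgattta
rpn-2: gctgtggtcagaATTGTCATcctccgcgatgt
rpn-6.1: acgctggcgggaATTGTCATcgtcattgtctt
pbs-1: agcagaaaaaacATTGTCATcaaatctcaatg
rpt-2: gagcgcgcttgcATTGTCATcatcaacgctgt
The base before the 8-mer is A in rpt-4, rpn-11, rpn-12, rpn-2 and rpn-6.1 and C in pbs-1 and rpt-2. The 8-mer does not sit at the summit. The base of lowest coordinate in each match lies 17 to 61 bp from the summit base. At rpn-11 the 8-mer lies inside the transcript, with its nearest base 24 bp past the start. In the 250 bp upstream to 50 bp downstream of a start, whether or not a peak is there, 6 of 33 members hold it (rpt-2, rpt-4, rpn-11, rpn-12, pbs-1 and pas-2), against 2.51% of all protein-coding genes. Of these, pas-2 had no peak past the threshold. The matches of rpn-2 and rpn-6.1 lie 301 and 379 bp upstream of the start, outside that stretch.

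Another 8-mer, GCGAGACC, was seen at the summits of rpn-1, rpn-3 and rpn-12 and was likewise picked after the sequences were read. It started within 50 bp at 3 of 27 member peaks (11.1%) and at 4.06% of all promoter peaks. In the promoter stretch it is held by 4 of 33 members (pas-7, rpn-3, rpn-6.1 and rpn-12) and by 1.66% of protein-coding genes. The 3 summit matches lie at chrII:11652961-11652992 (rpn-12, plus), chrIII:8447152-8447183 (rpn-3, plus), chrIV:6910259-6910290 (rpn-1, minus) and are shown with 12 bases on each side.
rpn-12: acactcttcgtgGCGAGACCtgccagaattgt
rpn-3: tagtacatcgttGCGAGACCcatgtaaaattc
rpn-1: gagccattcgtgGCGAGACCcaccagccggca
The match covers the summit base at rpn-1 and begins 2 and 10 bp from it at rpn-3 and rpn-12. Each is on the strand of the gene.

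Summits lay just upstream of the proteasome gene in most cases. The strongest summit of the 27 members was upstream of the nearest annotated start in every case, by 27 to 874 bp. The window itself reaches 1000 bp upstream but only 200 bp downstream, so most of the positions it admits are upstream. At rpt-4 and rpn-6.1 the summit lay in an intron, downstream of the farther annotated start. The median of 199 bp compares with 222 bp over the 3385 genes that had a promoter peak. The median was 164 bp in the core particle and 250 bp in the regulatory particle, with ranges of 136 to 874 bp and 27 to 685 bp. Within 300 bp upstream lay 18 of the 27, and rpt-5, rpt-3 and pas-1 had theirs more than 500 bp away. Intergenic sequence held 19 of the 27 summits. For all genes with a promoter peak only the median distance was computed, so these counts of positions are not shown to be particular to proteasome genes.

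**Figure D3:**
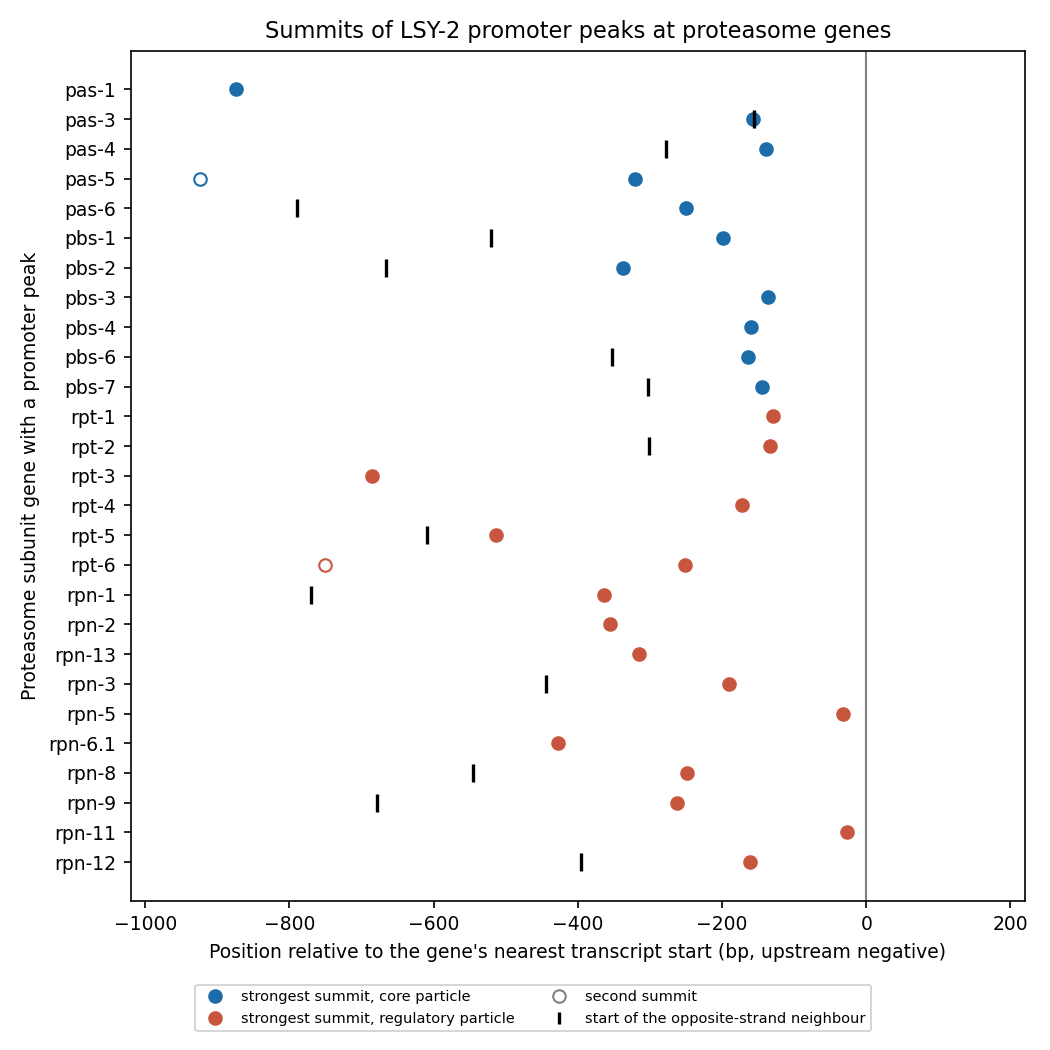
The horizontal axis gives the summit of each promoter peak in bp from the nearest annotated start of the proteasome gene, with upstream to the left, and rows are genes with a promoter peak. Filled circles are the strongest summits, open circles second summits, and black ticks the start of an opposite-strand protein-coding neighbour, drawn only for genes with 1 annotated start. Within 300 bp of the start lie 18 of the 27 strongest summits, and all 27 lie upstream of the nearest start. The counting window reaches mostly upstream.

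Many of these peaks could belong to a neighbour as well. At 19 of the 27 members the strongest summit also lay in the window of another protein-coding gene (70.4%), where this holds for 52.0% of all genes with a promoter peak. The start of the proteasome gene was the nearest protein-coding start at 13 of these 19. No such count was made over all genes with a shared summit, so it is not shown to be particular to proteasome genes. A summit in no other protein-coding window was found at 8 of 33 members, namely pas-5, pbs-3, pbs-4, rpt-1, rpt-3, rpt-6, rpn-11 and rpn-13, against 8.28% of all protein-coding genes. When a summit was given to the nearest start alone, 21 of 33 members kept a peak, against 12.4% of all genes, with 7 of 14 in the core particle. The peaks of pas-1, pas-3, pas-4, pbs-2, rpt-4 and rpt-5 then went to a neighbour.

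An opposite-strand protein-coding start lay within 1000 bp upstream of 22 of the 33 members (66.7%), an arrangement found at 18.8% of all protein-coding genes. Of these 22, 18 had a promoter peak (81.8%), against 40.9% of all genes so arranged. Of the 11 members with no such start, 9 had a peak (81.8%), against 11.4% of all genes without one. A close gene on the same strand, ending at most 500 bp upstream, was found at 8 of 33 members (24.2%) and at 18.1% of all genes. Of these 8 members 5 had a peak, against 12.5% of all such genes. In C. elegans, genes that follow each other closely on a strand are often transcribed together from the promoter of the leading gene as an operon. These arrangements were compared after the peaks were known, and operon membership itself is not annotated in the files used here.

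**Figure D4:**
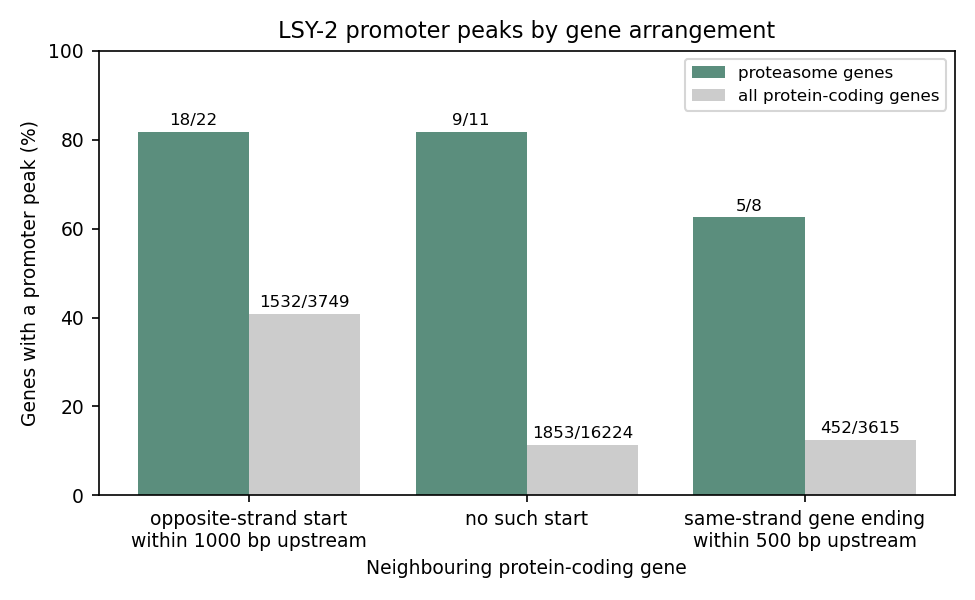
Bars give the percentage of genes with a promoter peak (vertical axis) among proteasome genes (green) and all protein-coding genes (grey) for 3 gene arrangements, with counts above them. The first 2 arrangements divide all genes between them, and the last overlaps both. Proteasome genes stand at 81.8% with and without an opposite-strand neighbour, while all genes stand at 40.9% and 11.4%.

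The 6 members without a promoter peak past the threshold fall into different cases. At pbs-5 a weak summit lay 36 bp inside the transcript in the pooled list before IDR (signal 24.9, rank 7406 of 30000), with 9.96 in replicate 1 and 9.70 in replicate 2. At rpn-10, a ubiquitin receptor gene, it lay 50 bp upstream (pooled 18.1, rank 10790), with 4.37 and 11.3. Both genes start just behind another gene on the same strand, K05C4.2 ending 111 bp upstream of pbs-5 and mrpl-9 ending 119 bp upstream of rpn-10, and both of those neighbours had a promoter peak. The nearest peak past the threshold stood 1151 bp from the pbs-5 start and 1424 bp from that of rpn-10. At pas-2 the pooled signal was 24.2 (rank 7644), with 19.0 in replicate 1 and no summit in the window in replicate 2. The pooled list before IDR places a peak at 39.0% of all protein-coding genes.

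At pas-7, rpn-7 and rpn-6.2 the pooled list and replicate 2 had no summit in the window. Replicate 1 alone had one at pas-7 (signal 27.9, rank 3878, 250 bp upstream) and 2 at rpn-7 (32.6 and 21.5, 398 and 192 bp upstream). At pas-7 the nearest summit of replicate 2 was 15907 bp from the start, and at rpn-7 it was 1724 bp away. Such lone peaks were scarce. Of the 4218 strongest peaks of replicate 1, 11 had no summit within 1000 bp in either the pool or replicate 2 (0.261%), and the windows of pas-7 and rpn-7 hold 2 of these. The cause was not tested. At rpn-6.2, the second gene named for RPN-6, replicate 1 had 5.13, close to the lowest signal in its list (4.18). The pair thus differs, since rpn-6.1 had the pooled signal of 472 given above and rpn-6.2 had no pooled summit.

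The replicates held most member peaks in common. A summit within 200 bp was listed in both replicates at 26 of the 27 members, rpn-9 being the exception. Over all 4218 peaks past the threshold, 26 had no such summit in replicate 2 and 14 had none in replicate 1. Across the 26 members the log2 signals of the replicates gave a Pearson r of 0.95, and Spearman's rho was 0.97. These describe agreement across genes whose peaks were chosen from the same replicates, and members are not independent samples. Replicate 1 was the higher at 22 of 26, with a median ratio of 1.17 and a range of 0.751 to 4.38. The largest was at pas-1, where the replicate 2 summit lay 105 bp from the pooled summit. The whole list of replicate 1 also had the higher median signal (8.52 against 7.84 in replicate 2). No such count was made over all peaks past the threshold, so the difference is not shown to be particular to these genes. With the 4218 strongest peaks of each replicate in place of the IDR list, 29 of 33 members had a promoter peak in replicate 1, against 16.8% of all protein-coding genes, and 24 of 33 in replicate 2, against 17.0%. In replicate 2 the genes pas-1, pbs-6 and rpn-9 were lost, and in replicate 1 pas-7 and rpn-7 were gained.

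Of 37 other genes of the ubiquitin system, listed by name with earlier results of these data known, 21 had a promoter peak (56.8%), against 16.9% of all protein-coding genes. Their median signal was 149, and the difference from the proteasome genes was not tested. By the nearest start alone 15 of the 37 had a promoter peak, against 12.4% of all genes. Ubiquitin genes and the enzymes that activate and conjugate ubiquitin or NEDD8 had peaks at 7 of 9, led by ubq-2, a ubiquitin fusion gene (pooled signal 2598, shared with frg-1), let-70 (342) and ubc-3 (189). Shuttle and segregase genes had them at 7 of 11, led by cdc-48.1, the ATPase that pulls ubiquitin-tagged proteins apart (2010), ubql-1 (675) and ufd-3 (304). The rad-23 peak counted here is the one shared with rpn-12. Assembly factors, activators and partners had them at 4 of 9, led by ecps-1 (361), ubh-4 (196) and usp-14 (137). The summits of let-70, ubql-1, ecps-1, ubh-4 and usp-14 were also shared, with klc-1, pdi-3, atx-2, algn-6 and vnut-1 in that order. The lid gene dss-1, whose name does not begin with rpn-, had none. Genes of endoplasmic reticulum degradation and of the SKN-1 route had them at 3 of 8. These were wdr-23 (170), skn-1 itself (78.0) and sel-1 (65.0), while png-1 and ddi-1, which process SKN-1A, had none.

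Other complexes were set beside the proteasome by their counts, with no test. The chaperonin genes, which build another ring complex of every cell, had promoter peaks at 8 of 8 (median signal 171, led by cct-8, cct-1 and cct-6), but at 2 of 8 by the nearest start alone. The cytosolic ribosomal protein genes had them at 71 of 78 (median 518, led by rpl-3, rpl-20 and rpl-15), and at 41 of 78 by the nearest start. The next 2 complexes have subunits related to those of the proteasome lid. The eIF3 translation factor genes had peaks at 8 of 11 (median 584, led by eif-3.J, eif-3.I and eif-3.C), and at 6 of 11 by the nearest start. Among the leading genes named, cct-8, cct-1, cct-6, rpl-20, rpl-15 and eif-3.I shared the summit with another protein-coding window. The COP9 signalosome genes had 1 of 6, csn-1 (192, shared with phf-14), near the 16.9% of all genes. With all pooled peaks before IDR, which reach 39.0% of all genes, the order turned round, with 6 of 6 COP9 signalosome genes and 9 of 11 eIF3 genes.

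By chromosome, the members lie on I (10 genes), II (7), III (8), IV (3) and V (5), with none on X. Promoter peaks stood at 8 of 10 on I, 6 of 7 on II, 7 of 8 on III, 2 of 3 on IV and 4 of 5 on V. Over all protein-coding genes the shares were 24.8%, 17.0%, 27.2%, 16.5% and 10.3% in the same order, so the members had the higher share on each of the 5 chromosomes that hold them.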

How the data were processed

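The authors deposited narrowPeak lists on the ce11 build for each replicate, for both replicates pooled and past an IDR threshold, per the labels and the text listings deposited with them. Each list before IDR holds 30000 peaks called against a control alignment. No source used here states the aligner, the peak caller or the cut-off of the IDR step. The peak signal is the authors' deposited value, with no stated statistic. The deposited −log10 q value, a unit taken from the narrowPeak format, is at its ceiling for the strong peaks and was not used. The IDR list equals the 4218 pooled peaks of highest signal. Read counts are absent from the lists, which leaves the sequencing depth unknown. The ce10 lists were not used.

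Positions are counted from 1 and were matched to Ensembl release 115 genes and the RefSeq sequence, both of WBcel235, the same assembly as ce11. A replicate's signal at a peak is that of its nearest summit within 200 bp. The 6-mers were searched on both strands at starts within 50 bp of the summit, and overlapping matches were allowed. The start of a match was its base of lowest coordinate on either strand. TGTCAT is contained in ATTGTCAT. With 1 group of 2 replicates no test was run, and a list is described by its count and median beside all protein-coding genes. All members are named. For members with a promoter peak the signals of both replicates and the pool are given, for other members the values before IDR, and for related lists the 3 strongest genes. Sequences were printed for the highest peaks and for holders of a 6-mer, where permitted. The name ubc-2 of the pathway list matched no gene. The members and lists were chosen with earlier results of these data known. Alternatives covered peak strength, the promoter window, overlap, the nearest start, each replicate alone and the search distance. The assignment of summits to genes was tested on simulated data. Tables were handled with pandas 2.3.3 and numpy 2.4.6 under Python 3.11.15, correlations came from scipy 1.17.1, and figures were drawn with matplotlib 3.10.9.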

Additional observations from a re-analysis of the deposited data

How the results depend on the processing

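The count of members with a promoter peak stayed between 21 and 30 of 33 in all alternatives: 21 with the stronger 2109 IDR peaks and 21 with the nearest start alone, 24 with the window of 500 bp upstream to 100 bp downstream, 29 with 2000 bp upstream to 200 bp downstream, 27 with any overlap and 30 with all pooled peaks before IDR. The stronger peaks gave a promoter peak to 2200 of all 19973 protein-coding genes, and for the other settings the shares of all genes were 12.4%, 13.8%, 21.4%, 17.8% and 39.0% in that order. Leaving out a replicate gave 24 without replicate 1 and 29 without replicate 2. With the nearest start, a summit in several windows counts only for the gene whose start is nearest. The core particle count then fell from 11 to 7, the chaperonin from 8 to 2 and the ribosome from 71 to 41. The count of the other ubiquitin system genes fell from 21 to 15 and that of eIF3 from 8 to 6. By construction no summit was then shared (0 members). The COP9 signalosome count rose from 1 to 6 with all pooled peaks. The median signal of 166 became 259 with the stronger peaks, 225 with the narrower window and 240 with the nearest start. Without replicate 1 or 2 it was 90.1 and 95.2, on the scale of single replicates. The median distance of 199 bp became 249 bp with the wider window, 189 bp without replicate 1 and 250 bp without replicate 2. With the 6-mer search at 25 bp, GAGAGA was near 1 of 27 members (3.70%, against 14.9% of all promoter peaks), TGTCAT near 1 (3.70% against 2.26%) and TATCAT near 0 (against 1.17%). At 100 bp TGTCAT was near 8 (29.6% against 9.14%), TATCAT near 4 (14.8% against 6.92%) and TATAAA near 2 (7.41% against 16.1%). Peaks shared by both replicates numbered 25 with summits within 50 bp, 26 with 1 bp of overlap and 24 among the strongest peaks of each. The 8-mers were chosen after seeing the data, as was their search within 100 bp (ATTGTCAT 7, GCGAGACC 3). No paired analysis was possible because the labels give 1 group. Peaks below the authors' lists cannot be seen, and with depth unknown a missing peak does not show that LSY-2 was absent.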
